A study of Danio rerio with 2 samples.

Results

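The Hedgehog pathway genes ptch1, smo, gli1, gli2a, gli3, sufu, hhip, ihha and boc were compared between livers of control and man1a2 morphant zebrafish larvae. They were found in the deposited tables by symbol, without regard to case, and a symbol ending in a or b that had no entry of its own was looked up without that letter. The 9 symbols gave 10 of the 31953 listed gene IDs, because gli2a was found under GLI2, a symbol that 2 IDs share. RefSeq lists gli2a and gli2b as separate zebrafish genes, and which of the GLI2 IDs is which was not given in the sources used here. Symbols are written as the name table gives them, so many appear in the upper case of the human gene.

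Livers were collected at 5 days post fertilization from uninjected larvae and from larvae injected at the 1-cell stage with a morpholino against man1a2, a Golgi mannosidase that trims N-linked glycans. A morpholino is a stable synthetic oligonucleotide that pairs with an mRNA and keeps it from being translated or spliced. RNA from 3 batches of larvae was pooled into 1 control library and 1 morphant library, so there were no replicates, and how much such pools vary within a group was not measured. The labels name several transgenic reporter lines, 2 morpholinos against man1a2 and 2 doses of each, without saying which line, morpholino or dose went into the sequenced pools. The controls received no injection, so an effect of injection and an effect of the knockdown cannot be told apart.

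Both morpholinos are shown because either may have made the morphant pool. Capitals in the translation-blocking oligonucleotide mark its only CAT triplet, the complement of a start codon.
man1a2 ATG morpholino: ccggcgtggtCATattttgatgatc
man1a2 splicing morpholino: aagaatgtaaactcacctctctgat

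Hedgehog ligands are secreted proteins that bind the receptor Patched. Unbound Patched holds the membrane protein Smoothened inactive, and ligand binding lifts that block, which changes the GLI transcription factors from repressors to activators. Patched, Gli1 and Hhip are themselves induced by the pathway, so their transcripts are widely read as its output. In the liver, Hedgehog signals are best known from the developing bile ducts, mesenchyme and the response to injury, and in vertebrates their transduction depends on the primary cilium.

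The control library held 19658335 reads and the morphant library 19783886. The morpholino's target, MAN1A2 (ENSDARG00000041728), had 193 and 195 reads, and a morpholino need not lower the transcript it blocks. All 12 hepatocyte markers on a fixed list were detected. They summed to 114974 CPM (reads of a gene per 1000000 reads of its library) in controls and 105778 in morphants. The read test defined below called 25.1% of all genes tested, 12.6% lower and 12.5% higher. Among genes with 1000 or more reads over both libraries, as each hepatocyte marker had, it called 34.1%, with 15.6% lower. By it, 5 of the 12 hepatocyte markers were lower and 0 higher. The lower IDs were c3a.1 (2.07-fold), apobb.1 (1.90-fold), CP (1.70-fold) and, by less, tfa (1.23-fold) and fga (1.202-fold). After scaling between the libraries, 10 of the 12 markers were lower in morphants, called or not, and 2 were higher. Reads of fabp10a rose from 170957 to 219794 (1.19-fold) and those of serpina1 from 116588 to 132533, both short of the 1.2-fold needed for a call. The transcription factor gene HNF4A had 1758 and 1775 reads, which after scaling was 1.07-fold lower in morphants and not past the test. Markers of several other cell types also differed between the pools. Summed CPM went from 161 to 24.6 for leukocytes (5 of 10 tested IDs lower, 0 higher; 30.3 to 13.1 without 1 MFAP4 ID, ENSDARG00000090557), from 41.0 to 19.6 for erythroid cells (4 of 5 lower), from 30.7 to 439 for exocrine pancreas (11 of 11 higher) and from 36.7 to 106 for epidermis (7 of 10 higher). Hepatic stellate and mesenchymal markers went from 110 to 142 (3 of 13 higher, 0 lower), endothelial from 166 to 154, biliary from 1773 to 1961, and intestinal from 3364 to 2327, or from 145 to 149 without apoa4b.1. Cartilage markers were at 32.4 and 35.2 CPM, or at 9.51 and 15.01 without 1 SOX9 ID (ENSDARG00000043923) that is also on the biliary list. Of the 7 tested cartilage IDs, 1 was higher, COL2A1 (ENSDARG00000011407, 30 and 104 reads), and 1 lower, that SOX9 ID. Skeletal muscle markers were at 4.07 and 8.04 CPM. Nervous system markers were at 2.85 and 6.32 CPM, or at 0.305 and 0.708 without tubb5 (50 and 111 reads). Of the 10 nervous system IDs, tubb5 was the only 1 with enough reads to be tested. Of the defining markers, icn2 and cldni were at 0 reads in controls and at 33 and 31 in morphants. The pancreatic gene ptf1a had 0 and 2 reads, under the floor of 3 reads, and was not tested. The markers elavl3, sox2, neurod1, vil1 and fabp6 were at 0 in both libraries. Their part in the results below was not tested, and in pooled tissue fewer cells of a type and less RNA per cell cannot be told apart.

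Of the 10 Hedgehog IDs, 2 were lower in morphants and none was higher. HHIP, the decoy receptor, fell 1.68-fold and GLI3, the main GLI repressor, fell 1.94-fold. The receptor PTCH1, the transducer SMO, the inhibitor SUFU, the ligand ihha, the coreceptor BOC, GLI1 and both GLI2 IDs were not past the test. A gene was called past the read test when an exact binomial test of its reads in the 2 libraries gave a Benjamini-Hochberg adjusted p under 0.05 over all 15732 genes with at least 10 reads and the fold was 1.2 or more. By that rule 25.1% of all genes tested were called, 12.6% lower and 12.5% higher, against 2 of 10 here, so the share of Hedgehog IDs called was near the background. Their median log2 ratio (morphant over control) was -0.17, against 0.01 over all genes tested. The read test compares 2 libraries, not 2 conditions, and takes no account of variation between pools.

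**Figure D1:**
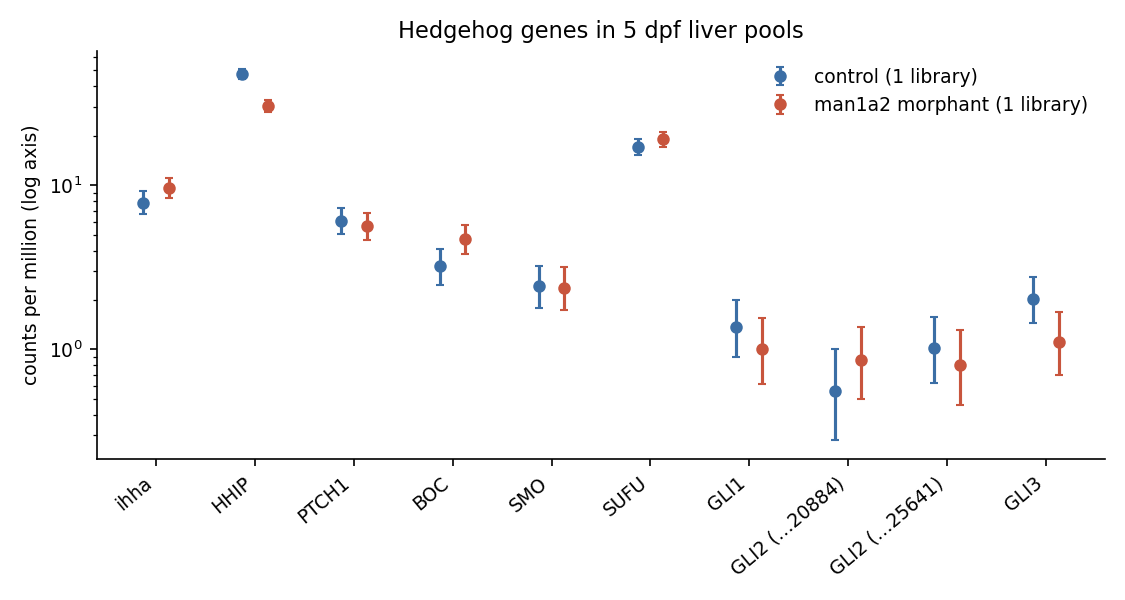
Level in CPM (log axis) of each Hedgehog ID in the control library (blue) and the man1a2 morphant library (red), with exact Poisson 95% intervals that cover counting error only. The intervals of HHIP lie apart, at 47.7 and 30.4 CPM, and those of every other ID overlap. Values are not scaled to transcript length, so heights of different genes are not to be compared.

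Among the ligands, ihha (ENSDARG00000058733), an Indian hedgehog gene, had 154 reads in controls and 191 in morphants. These were 7.83 CPM (exact Poisson 95% interval 6.65 to 9.17) and 9.65 CPM (8.33 to 11.1), and the intervals overlapped. The log2 ratio was 0.20, with a 95% Clopper-Pearson interval of -0.11 to 0.52 (exact binomial adjusted p = 0.376). At this depth a rise of 1.29-fold or a fall of 1.35-fold was the smallest that could have been called. Reads of other ligand genes were also looked for. The ligand gene dhh matched no ID, so its reads could not be given. Both IDs under SHH and the ID of ihhb had 0 reads in each library, and a count of 0, set at a floor of 3 reads, allows up to 0.153 CPM in controls and 0.152 CPM in morphants.

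A further ID, ENSDARG00000037062, is listed under the human symbol IHH. It is no member by the rule above, since ihha has an entry of its own, and it was chosen after its values were seen. Which zebrafish gene it is was not given in the sources used here, nor whether reads could be shared between it and ihha. It had 130 reads in controls and 44 in morphants, or 6.61 CPM (5.53 to 7.85) and 2.22 CPM (1.62 to 2.99), and these intervals did not overlap. The log2 ratio was -1.66 (interval -2.20 to -1.17), a 3.16-fold fall, with an exact binomial adjusted p = 2.5e-11. When pools of a group were assumed to vary with a biological coefficient of variation (CV) of 0.1 or 0.2, edgeR's exact test gave adjusted p = 1.49e-05 and 0.0444, and at a CV of 0.4 it gave 1. The ID was also not past the threshold with the dispersion estimated from both libraries as if they were 1 group. The IDs under ihha and IHH lay on opposite sides of 0, and only the second passed the read test.

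HHIP (ENSDARG00000060397) encodes a membrane glycoprotein that binds Hedgehog ligands and keeps them from Patched. It had the most reads of the 10 IDs, 937 in controls and 601 in morphants, and so the smallest counting error. Its level was 47.7 CPM (44.7 to 50.8) in controls and 30.4 CPM (27.998 to 32.9) in morphants. The log2 ratio was -0.75 (interval -0.90 to -0.60), a fall of 1.68-fold (1.51 to 1.86) with an exact binomial adjusted p = 2.77e-22. Of the 3387 genes with 1000 or more reads, 34.1% were past the read test and 15.6% were lower, and 87 (2.57%) had a ratio as low as that of HHIP or lower. At an assumed CV of 0.1 HHIP stayed past the threshold (edgeR's exact test, adjusted p = 0.0165), as did 6.37% of all genes tested. At 0.2, where 1.4% of genes passed, it did not (adjusted p = 0.855 in edgeR's exact test). No Hedgehog ID passed at 0.4, where 0.273% of genes did, or with the dispersion estimated from both libraries as if they were 1 group, where 0.731% did.

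Reads of HHIP were also set against those of the other members within each library, a ratio that no choice of scaling can move. For every read of ihha there were 6.08 reads of HHIP in controls and 3.15 in morphants. For SUFU the values were 2.78 and 1.59, for PTCH1 7.87 and 5.41, for SMO 19.5 and 12.8, and for BOC 14.9 and 6.46. Per read of GLI1 the values were 34.7 and 30.05, and per read of GLI3 they were 23.4 and 27.3. These ratios follow from the reads already given and were not tested, and those against the GLI IDs carry the wide counting error of 11 to 40 reads. HHIP made up 53.4% of the summed reads of the 10 IDs in controls and 40.2% in morphants. The other 9 IDs together had 819 and 894 reads, a log2 ratio of 0.02 (interval -0.12 to 0.16).

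**Figure D2:**
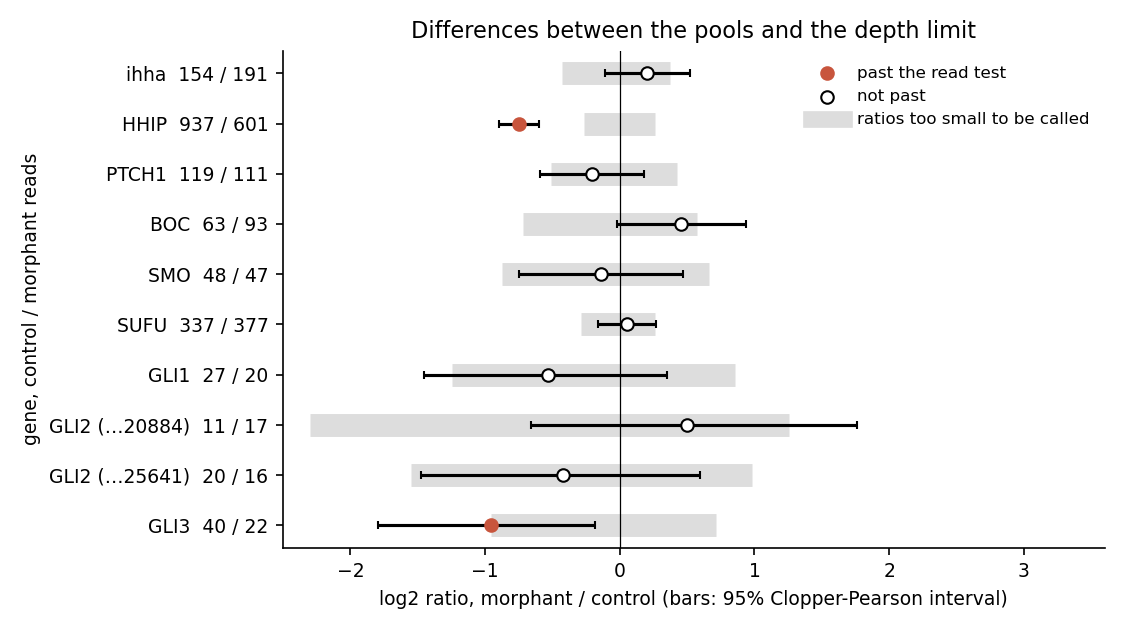
Log2 ratio of morphant over control for each Hedgehog ID (points), with 95% Clopper-Pearson intervals (bars) and reads in the control and morphant library beside each name. Grey bands span the ratios too small to be called at the control reads measured. HHIP at -0.75 lies outside its band, GLI3 at -0.95 lies on the edge of its band, and the other IDs lie within theirs.

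PTCH1 (ENSDARG00000016404), the receptor that restrains Smoothened and a target of the pathway, had 119 reads in controls and 111 in morphants. Levels were 6.05 CPM (5.01 to 7.24) and 5.61 CPM (4.62 to 6.76), nearly the same range in both pools. The log2 ratio of -0.21 had an interval of -0.59 to 0.18 (exact binomial adjusted p = 0.484). That interval reached further below 0 than above it and held neither a 2-fold fall nor a 2-fold rise. BOC (ENSDARG00000074335), an immunoglobulin-family coreceptor that presents ligand to Patched, had 63 and 93 reads. Its log2 ratio was 0.45 with an interval of -0.02 to 0.94 (exact binomial adjusted p = 0.149), the highest ratio among the IDs with at least 100 reads over both libraries. Of all genes with 100 or more but fewer than 1000 reads, the range that also holds ihha, PTCH1 and SUFU, 28.9% were called and 14.4% were lower, against 0 of these 4 IDs. With 63 control reads, 101 morphant reads would have been needed for a call.

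SMO (ENSDARG00000002952), the membrane protein that carries the signal inward, had 48 reads in controls and 47 in morphants. The log2 ratio was -0.14 and its interval ran from -0.75 to 0.47 (exact binomial adjusted p = 0.849), so neither a moderate fall nor a moderate rise could be told from no change. SUFU (ENSDARG00000056801), which binds GLI proteins in the cytoplasm and holds them back, had 337 and 377 reads. Its interval of -0.16 to 0.27 around a log2 ratio of 0.05 was the narrowest after that of HHIP (exact binomial adjusted p = 0.799). For SUFU, a change of 1.22-fold in either direction could have been called, so depth limited this gene little.

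The GLI transcription factors had the fewest reads. GLI1 (ENSDARG00000101244), an activator and a standard target of the pathway, had 27 reads in controls and 20 in morphants, or 1.37 CPM (0.905 to 1.998) and 1.01 CPM (0.617 to 1.56). The log2 ratio was -0.53 with an interval of -1.45 to 0.35 (exact binomial adjusted p = 0.431). Only a rise of 1.81-fold or more or a fall of 2.37-fold or more could have been called, so neither direction was detectable for smaller changes.

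The GLI2 IDs share the symbol of the GLI factor known in mice as the primary activator, a role that may differ in zebrafish. ENSDARG00000020884 had 11 reads in controls and 17 in morphants, and ENSDARG00000025641 had 20 and 16. Their log2 ratios were 0.50 (interval -0.66 to 1.76) and -0.42 (-1.47 to 0.59), on opposite sides of 0 and each with an interval that held 0. The first could have been called only at a rise of 2.39-fold or a fall of 4.91-fold, the widest limits of the 10 IDs. Summed, the GLI2 IDs had 31 and 33 reads.

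GLI3 (ENSDARG00000052131) had 40 reads in controls and 22 in morphants, or 2.03 CPM (1.45 to 2.77) and 1.11 CPM (0.697 to 1.68), with intervals that overlapped. The log2 ratio was -0.95 (interval -1.79 to -0.18), and the exact binomial adjusted p = 0.0447 lay just under the threshold. With 40 control reads, 22 was the highest morphant count that could have been called. The call was lost when the libraries were scaled to total counts (exact binomial adjusted p = 0.0738) or when genes with 1 to 9 reads were also tested (0.0572), and also at an assumed CV of 0.1 (edgeR's exact test, adjusted p = 0.228). Among genes with 10 to 99 reads over both libraries, 13.9% were past the read test. The 4 GLI IDs together had 98 and 75 reads, a log2 ratio of -0.49 (interval -0.95 to -0.04), and 58 and 53 without GLI3, a log2 ratio of -0.24 (-0.80 to 0.32).

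Depth set the limit for most of these genes. Over both libraries, 5 of the 10 IDs had fewer than 100 reads, 4 had more than that but fewer than 1000, and 1 had over 1000. A 2-fold rise could have been called for 9 IDs and a 2-fold fall for 7, the exceptions for a fall being GLI1 and both GLI2 IDs. The interval of the log2 ratio held 0 for 8 IDs, and 6 ratios were below 0 and 4 above under each of the 4 scalings tried. All intervals cover counting error only.

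**Figure D3:**
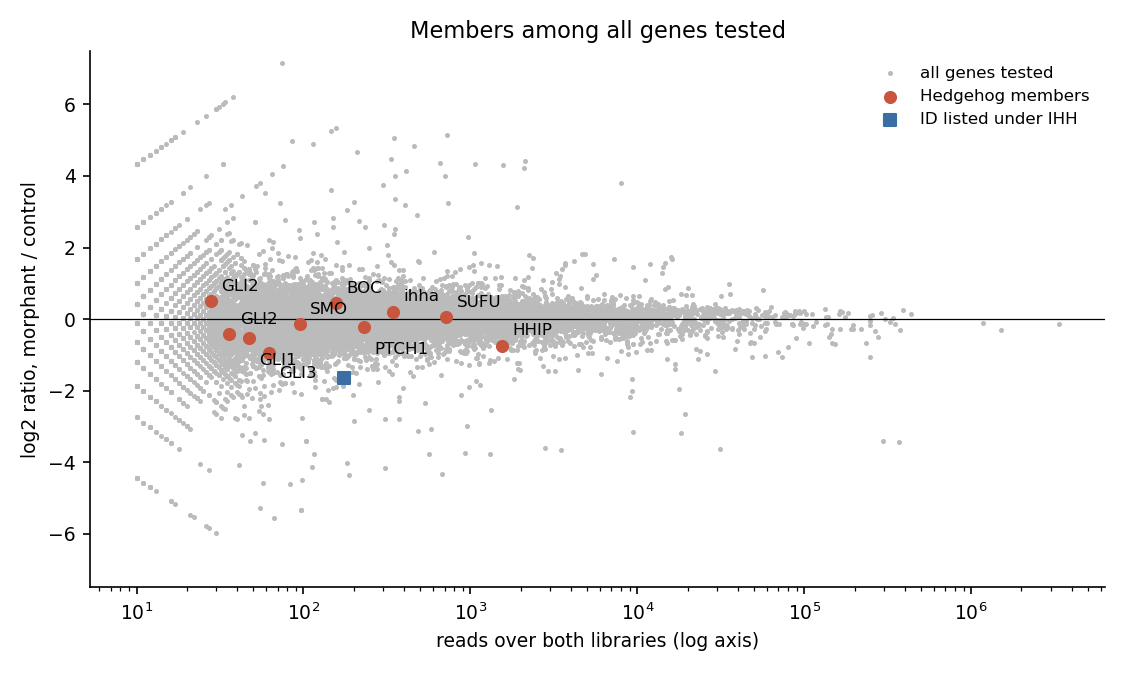
Log2 ratio of morphant over control against reads over both libraries (log axis) for all 15732 genes tested (grey), the 10 Hedgehog IDs (red) and the ID listed under IHH (blue square). HHIP lies in the lower part of the grey cloud, with 87 of the 3387 genes with 1000 or more reads at its ratio or lower. The other Hedgehog IDs, at 28 to 714 reads, also lie within the cloud.

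Other genes of the pathway were compared by role, from lists that held 88 symbols. Of the symbols, 79 matched an ID, but gli2b matched only the GLI2 IDs above. The lists gave 83 IDs outside the 10 above. Of these, 62 had at least 10 reads, and 15 (24.2%) passed, of which 4 rose and 11 fell, against 25.1% of all genes tested. Their median log2 ratio was -0.05. Under total counts the split was 8 higher and 8 lower, so the excess of lower calls depends on the scaling.

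Among 5 tested IDs for ligands and their release, 1 was past the test (20%, against 25.1% of all genes tested). DISP1, the transporter that frees lipid-bearing ligand from the cell that makes it, had 86 reads in controls and fell to 49 in morphants. Its log2 ratio was -0.91 with an interval from -1.46 to -0.40, and the exact binomial test gave an adjusted p of 0.00212. SCUBE2, a secreted protein that aids the same step, had 214 and 242 reads and a log2 ratio of 0.07. Of 6 tested IDs for receptors and coreceptors, 0 were past the exact binomial read test, against 25.1% of all genes tested. The number was also 0 in edgeR's exact test at each assumed variation. Under total counts 1 of the 6, GAS1 (ENSDARG00000067984, 52 and 85 reads), became a higher call, at a log2 ratio of 0.69 (exact binomial adjusted p = 0.0228). The other ID under GAS1, ENSDARG00000077298, had 98 and 85 reads and was not past the test under either scaling. GPC4, a glypican of the cell surface, had 869 and 954 reads. CDON, a relative of BOC, had 264 and 298 reads.

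Intracellular regulators had 7 of 24 tested IDs past the test, 1 higher and 6 lower (29.2% called, near the 25.1% of all genes tested). ITCH (ENSDARG00000099199), an E3 ubiquitin ligase that marks GLI1 for breakdown in mammalian cells, showed the lowest ratio of all pathway genes tested, from 77 reads in controls to 19 in morphants. Its log2 ratio was -2.10, with an interval from -2.93 to -1.39 and an adjusted p of 2.62e-09 in the exact binomial test, and it was the only one of the 62 IDs past the threshold at an assumed CV of 0.1 or 0.2 (at 0.2, edgeR's exact test, adjusted p = 0.0122). It was listed as itchb and found under the human symbol, and none of the scalings ended its call. Protein kinase A, which phosphorylates GLI proteins toward their repressor form, was represented by prkar1ab, a regulatory subunit that fell from 154 to 104 reads, by PRKAR1A, another regulatory subunit, which fell from 1512 to 1306, and by prkacab, a catalytic subunit that fell from 124 to 95. The catalytic subunit with the most reads, prkacaa, had 2066 and 2158 and was not past the test. The kinase DYRK2 fell from 424 to 355 reads and the receptor kinase GRK3 from 186 to 150. The calls of prkacab and GRK3 were lost under total counts (exact binomial adjusted p = 0.121 and 0.115), and that of PRKAR1A because its fold was then below the minimum. DHCR7, the last enzyme of cholesterol synthesis, whose sterol substrates bear on Smoothened, had 2760 reads in controls and rose to 4181 in morphants, a log2 ratio of 0.49 that ranged from 0.42 to 0.56.

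Ciliary genes of Hedgehog transduction had 2 of 16 tested IDs past the test, both lower (12.5% called, against 25.1% of all genes tested). GPR161 (ENSDARG00000058903), a ciliary receptor that represses the pathway in mice by raising cAMP, had 68 reads in controls and fell to 37, a log2 ratio of -0.98 (-1.60 to -0.39). The other ID under GPR161, ENSDARG00000055659, had 8 and 7 reads and was not past the test. RAB23, a small GTPase that is also a repressor in mice, fell from 78 to 49 (-0.77, interval -1.32 to -0.24). FKBP8 and an ID under MGRN1 (ENSDARG00000100072), the genes of the list with the most reads, had 749 and 847, and 389 and 357, and neither was past the test. Exact binomial adjusted p = 0.00431 was found for the lower GPR161 ID and 0.0145 for RAB23, and neither passed at an assumed CV of 0.1.

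Target genes outside the core pathway moved in both directions, with 3 of 12 tested IDs higher and 2 lower (41.7% called, against 25.1% of all genes tested, a difference that was not tested on so few IDs). The transcription factor genes NKX2-3 and foxf2a rose from 9 to 30 and from 37 to 75 reads, and MYCN, a regulator of growth, rose from 21 to 49. Their log2 ratios were 1.58 (interval 0.52 to 2.89), 0.90 (0.33 to 1.52) and 1.097 (0.35 to 1.93). FGF19, a secreted growth factor, fell from 1408 to 1039 reads, a log2 ratio of -0.55. The cyclin gene CCND2 (ENSDARG00000051748) fell from 298 to 227, a log2 ratio of -0.50. The other ID under CCND2, ENSDARG00000070408, had 37 and 28 reads and was not past the test. Whether the listed targets answer to Hedgehog signals in larval liver was not tested. CCND1 had 841 and 1041 reads and a log2 ratio of 0.20, which was under the minimum fold and became a call under total counts. FOXF1, a mesenchymal target, had 60 and 51 reads, and nkx2.2a, nkx2.2b, nkx3.2 and pax9 had 0 in both libraries. At an assumed CV of 0.1, 0 of the 12 target IDs were past the threshold in edgeR's exact test, where the exact binomial test had called 5.

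**Figure D4:**
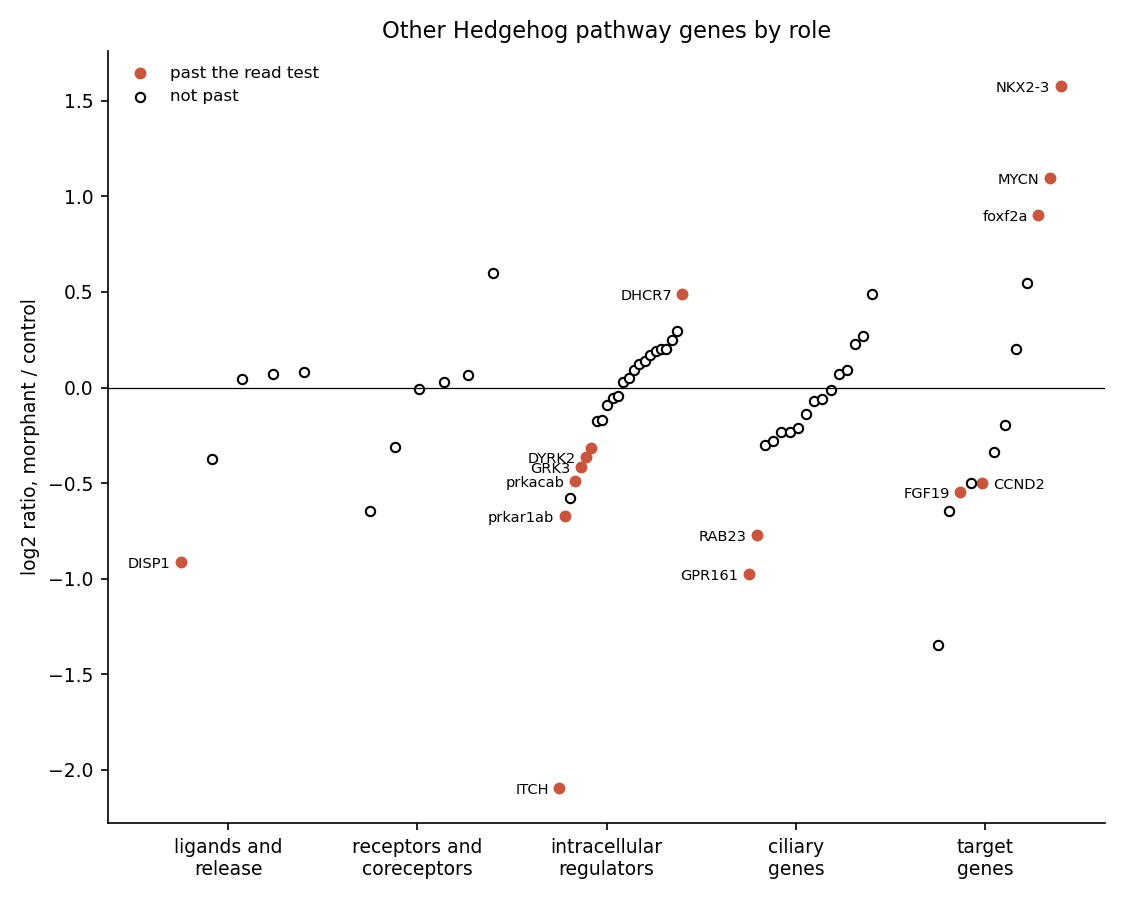
Log2 ratio of morphant over control for the tested pathway genes outside the 10 Hedgehog IDs, grouped by role and sorted within each role, with filled red points past the read test and open points not past it (a gene on more than 1 list is drawn in each). ITCH at -2.10 is the lowest point, NKX2-3 at 1.58 the highest, and the medians of the 5 roles lie between -0.27 and 0.04.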

How the data were processed

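RNA with a poly-A tail was made into stranded libraries from 1 pool of livers per group. The authors deposited raw counts, the whole number of reads assigned to each Ensembl gene, without normalization. The submitters' processing notes name GRCz10, FastQC and DESeq2. The aligner, the counting program, its use of strand and its handling of shared reads were not given in the sources used here. Of 31953 IDs, 26121 (81.7%) had a symbol in a separate name table. Levels per length had been planned, but no transcript lengths or member sequences were used here, so levels were not compared between genes.

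Counts were scaled with the size factors of DESeq2 1.42.0 in R 4.3.3. A log2 ratio carries a pseudocount of 0.5 and its Clopper-Pearson interval none. Each gene with at least 10 reads was given an exact binomial test, 2-sided by doubling the smaller tail, with the expected morphant share taken from the size factors. The thresholds of 0.05 and 1.2-fold are those of the study's methods. With 1 library per group no replicated model can be fitted, so edgeR 4.0.16 was used for its exact test with assumed biological coefficients of variation of 0.1, 0.2 and 0.4, or with the dispersion that DESeq2 fits when both libraries are treated as 1 group (blind). Alternatives were TMM, upper-quartile and total-count scaling, minima of 1 and 100 reads, no minimum fold and a minimum of 2, pseudocounts of 0.1 and 2, and summing the GLI2 IDs. Scripts were tested on simulated data.

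A floor of 3 counts stands for 0. Pathway and marker genes were listed from general knowledge, and the members and lists were chosen with earlier results of these data known. All members are named. Of each pathway list, the text names the genes past the test (at most 6, by size of the log2 ratio) and the 2 with the most reads. The genes IHH, PRKAR1A, GAS1 and FOXF1, the other ID under CCND2 and the pathway genes at 0 were named after their values were seen. PCR copies are not independent molecules. A listed pathway gene is not reported here by name.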

Additional observations from a re-analysis of the deposited data

How the results depend on the processing

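No paired analysis was possible because controls and morphants were each sequenced as 1 library. The number of Hedgehog IDs past the read test was 2. It was 1 (HHIP) under total counts, with a minimum of 1 read, with a minimum of 100 reads and at an assumed CV (coefficient of variation) of 0.1, and 0 with a minimum fold of 2, with 0.2, with 0.4 and under the blind dispersion. It stayed at 2 under the other scalings. Of the wider pathway IDs, 15 were past the test, against 3 with a minimum fold of 2, 1 with 0.1, 1 with 0.2, 0 with 0.4 and 0 under the blind dispersion. Over all genes the number was 3956, against 988 with a minimum fold of 2, 1002, 220 and 43 with 0.1, 0.2 and 0.4, and 115 under the blind dispersion. Total counts moved log2 ratios up by 0.10 and the share of higher calls over all genes from 49.9% to 69.2%. Another 2-sided rule, summing the probabilities no larger than that observed and chosen after seeing the data, gave 4089 genes and the same 2 Hedgehog IDs. No value here measures how far repeated pools of controls or of morphants would differ.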
